A study of Homo sapiens with 24 samples.

Results

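Complement is a set of blood and cell-surface proteins that tag and kill foreign cells, and most cells carry inhibitors that keep it from acting on themselves. The RNA of 9 complement genes was measured in A549, an established human lung adenocarcinoma cell line: the proteases C1R, C1S and CFB, the cascade proteins C3 and C5, the soluble inhibitor CFI, and the membrane inhibitors CD46, CD55 and CD59. The genes were picked by symbol, with earlier results of these data known, and they are 9 of the 58721 genes that each count file lists. RNA-seq of poly(A)-selected RNA gave 24 libraries.

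In the single knockdown experiment, A549 cells received 25 nM of siRNAs against MYBL2 (siMYBL2, 4 libraries), against FOXM1 (siFOXM1, 4 libraries) or of scrambled siRNA (siControl, 4 libraries). In the double knockdown experiment, they received siRNAs against both genes (siBoth, 3 libraries) or scrambled siRNA (siControl_Both, 3 libraries), and the labels do not say whether 25 nM is the amount of each siRNA there. In the compound experiment, cells were given 20 µM FDI-6 for 24 h (FDI6, 3 libraries) or served as its controls (control_FDI6, 3 libraries). The study names these controls both as DMSO, a solvent, and as untreated cells. MYBL2 and FOXM1 are transcription factors of cell cycle genes, and FDI-6 is a small molecule described as an inhibitor of FOXM1 binding to DNA. All libraries come from this cell line, so they hold the complement RNA of a cultured tumour cell and not that of liver, where most plasma complement is made. The study's methods call the replicates biological, and the labels do not say how they were kept apart.

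In the classical pathway, the C1 complex of C1q with the proteases C1R and C1S binds to antibody or a surface, C1R activates C1S, and C1S opens the cascade that cleaves C3. The alternative pathway uses factor B, the product of CFB, to build the enzyme that cleaves more C3, and cleavage of C5 starts the membrane attack complex, which makes a pore. Factor I, the product of CFI, cuts C3b and C4b with the help of cofactors such as CD46, CD55 speeds the decay of the C3-cleaving enzymes, and CD59 blocks the last step of the pore. Carcinoma cells, lung lines among them, are known to carry CD46, CD55 and CD59.

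Between 16487394 and 30140550 read pairs per library fell on genes, with 16487394 to 17741253 in FDI6 and 18856286 to 21039750 in control_FDI6. The share of pairs that were not aligned was 9.09% to 10.93% in siBoth, 7.68% to 7.92% in siControl_Both and 1.73% to 3.03% in the other libraries. The targeted genes followed their labels: MYBL2 was at 6.38 CPM (counts scaled to equal library size) in siMYBL2 and 156 in siControl, FOXM1 at 12.2 in siFOXM1 and 128 in siControl, and siBoth had 8.45 CPM of MYBL2 and 13.1 of FOXM1 against 175 and 138 in its controls. With FDI6, FOXM1 was at 98.9 CPM against 129.7 and MYBL2 at 134.5 against 195, and in siMYBL2, FOXM1 was at 75.8 against 128. Of 6 epithelial markers, 6 averaged at least 1 CPM in every group, whereas of 7 markers of alveolar type II cells only 2 or 3 did, with the surfactant genes and NKX2-1 below 1 CPM in every library. Fibroblast markers summed to at most 70.4 CPM in a library, leukocyte markers to at most 15.4 CPM and endothelial markers to at most 5.04 CPM.

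FDI6 gave the most differences that passed a threshold among the 9 genes. Each member tested there had a smaller standard error (SE) than in any knockdown fitted without pairs, so equal differences passed more readily. CD55 and CD59 were 1.99-fold and 1.67-fold higher in FDI6 than in control_FDI6, and they were the 2 members called among 7 tested, where a call takes more than a 1.5-fold difference and a Benjamini-Hochberg adjusted p under 0.05, over all genes tested, in edgeR's quasi-likelihood test. Of the 15240 genes tested, 13.8% were called, 8% as higher and 5.77% as lower. C5, C1S and C1R were lower and CD46 was higher with an adjusted p under 0.05, each by less than 1.5-fold. Together, 6 of 7 members had an adjusted p under 0.05, as had 5935 of the 15240 genes, and the median log2 fold change was -0.10 for the members and -0.012 for all genes.

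The knockdowns called few members or none. In siMYBL2, 1 of 8 members tested was called, CFB, which was higher but passed the filter on low counts only through the libraries where it was high, while 7.9% of 16065 genes were called. In siFOXM1, edgeR called 0 of 7 members tested (0 at an unadjusted p under 0.05, and 0 with DESeq2), while 0.667% of 15892 genes were called. In siBoth it called 0 of 9 members (1 at an unadjusted p under 0.05, and 0 with DESeq2), while 6.44% of 15812 genes were called. Of all genes tested, 2060 in siFOXM1 and 4683 in siBoth had an unadjusted p under 0.05 in edgeR. With the replicate number as a block, which pairs the knockdown libraries, edgeR also called CFB in siBoth (edgeR adjusted p = 0.000438). There, 1849 of the 15812 genes were called. In the block fits, C1R and CD59 in siMYBL2 had an edgeR adjusted p of 0.034 and 5.19e-05. C5 and CD55 in siFOXM1 had 0.000136 and 0.0265, and C1R and C5 in siBoth had 0.000945 and 0.00233. Each of these was below 1.5-fold. The median log2 fold change of the members was 0.07 in siMYBL2, 0.06 in siFOXM1 and -0.03 in siBoth, beside 0.015, 0.003 and 0.017 for all genes.

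**Figure D1:**
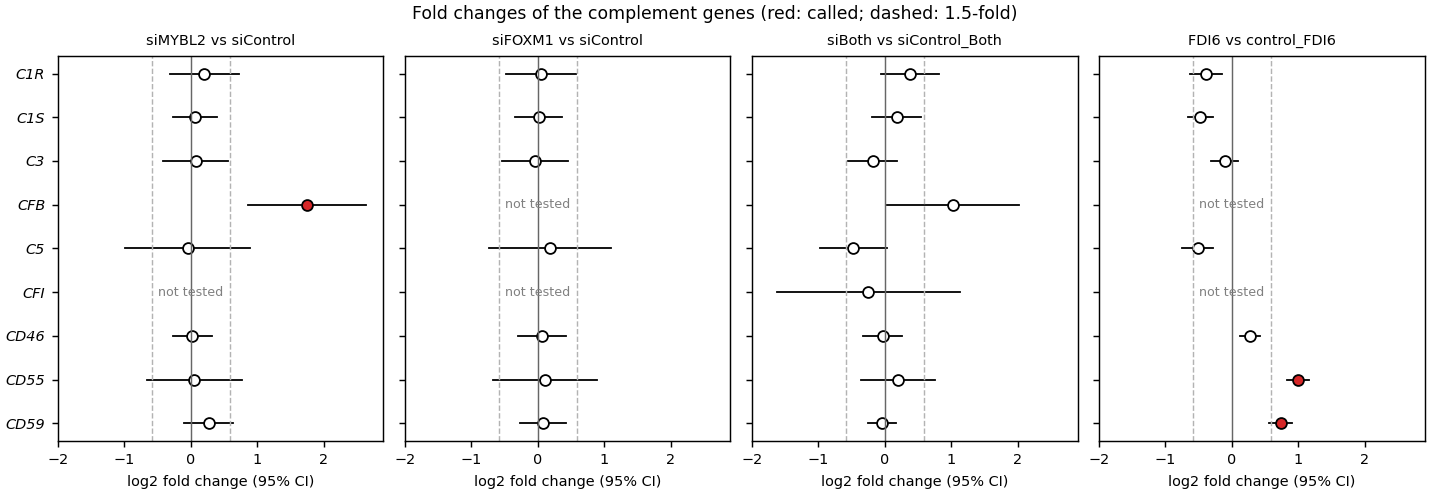
Log2 fold change of the 9 genes in each treatment over its own controls (x axis), with 95% confidence intervals as lines and red points for called genes. CD55 at 0.99 and CD59 at 0.74 stand to the right with FDI6 and CFB at 1.75 with siMYBL2, where it has 2 to 7 counts per control library, while most other intervals cross 0 in the knockdowns. The intervals are from fits that do not pair libraries by replicate number.

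CD55, on the plus strand of chromosome 1 of hg38 from 207321519 to 207386804 (ENSG00000196352.15, 10 exons in its canonical GENCODE V44 transcript), encodes decay-accelerating factor. Its level, as CPM with TMM-scaled library sizes, was 51.2, 50.2 and 53.4 in the control_FDI6 libraries and 109, 96.5 and 97.4 in the FDI6 libraries, so every treated library lay well above every control. The group means were 51.6 ± 1.67 (SD, n = 3) and 101 ± 7.05 (SD, n = 3). The log2 fold change was 0.99 with a 95% confidence interval from 0.83 to 1.15 (SE 0.0745, edgeR adjusted p = 2.57e-06). It stayed between 0.94 and 1.02 when each of the 6 libraries was left out in turn.

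CD59 lies on the minus strand of chromosome 11 from 33703010 to 33736479 (ENSG00000085063.15, 4 exons), and 8.26% of its exon bases are shared with another gene on the same strand. It encodes a glycolipid-anchored protein, also called protectin. Its level was 97.9, 83.0 and 95.5 CPM in control_FDI6 and 159.6, 144 and 149.8 CPM in FDI6, again with no overlap. Means were 92.1 ± 8.01 (SD, n = 3) and 151 ± 7.88 (SD, n = 3), and the log2 fold change was 0.74 with an interval from 0.56 to 0.91 (SE 0.0790, edgeR adjusted p = 3.7e-05). When counts were corrected for the GC content and length of transcripts, a choice made after values had been seen, it was 0.42 and no longer a call by its size (edgeR adjusted p = 8.49e-05), while CD55 was still called.

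CD46 encodes membrane cofactor protein and lies on the plus strand of chromosome 1 from 207752037 to 207795513 (ENSG00000117335.19, 13 exons). A gene on the opposite strand overlaps 5.96% of its exon bases, and the strand setting of the counting is not given in the sources used here. The control_FDI6 libraries had 156, 161 and 163.5 CPM and the FDI6 libraries 205.5, 175 and 189. The groups did not overlap, yet the difference was small, with a log2 fold change of 0.27 (interval 0.12 to 0.42, edgeR adjusted p = 0.0101). The adjusted p was 0.0602 without control_FDI6 replicate 1, and with the GC and length correction the value was -0.01 (edgeR adjusted p = 0.933), so the direction of CD46 depends on that choice.

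Because the 3 membrane inhibitors were the members that were higher with FDI6, RefSeq windows of 300 bases around their start sites, most of it upstream, are shown for comparison (GRCh38.p14). Capitals mark letters that match, on either strand, the cell cycle homology region TTTGAA (CHR), a CCAAT box, the MYB core AACNG or the forkhead core TAAACA, and adjoining matches run together.
CD55, chr1:207321428-207321727, plus strand: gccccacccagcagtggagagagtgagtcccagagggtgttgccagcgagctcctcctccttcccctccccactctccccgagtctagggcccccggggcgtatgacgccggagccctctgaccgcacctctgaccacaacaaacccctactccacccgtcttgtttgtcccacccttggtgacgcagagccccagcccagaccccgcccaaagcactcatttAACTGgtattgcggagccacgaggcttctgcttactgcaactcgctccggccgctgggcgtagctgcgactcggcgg
CD59, chr11:33736374-33736673, minus strand: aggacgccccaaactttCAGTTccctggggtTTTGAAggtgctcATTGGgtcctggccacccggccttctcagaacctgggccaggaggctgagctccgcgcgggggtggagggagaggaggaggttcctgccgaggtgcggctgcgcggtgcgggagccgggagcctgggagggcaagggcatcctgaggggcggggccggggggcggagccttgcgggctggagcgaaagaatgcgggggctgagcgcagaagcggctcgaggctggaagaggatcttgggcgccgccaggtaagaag
CD46, chr1:207751804-207752103, plus strand: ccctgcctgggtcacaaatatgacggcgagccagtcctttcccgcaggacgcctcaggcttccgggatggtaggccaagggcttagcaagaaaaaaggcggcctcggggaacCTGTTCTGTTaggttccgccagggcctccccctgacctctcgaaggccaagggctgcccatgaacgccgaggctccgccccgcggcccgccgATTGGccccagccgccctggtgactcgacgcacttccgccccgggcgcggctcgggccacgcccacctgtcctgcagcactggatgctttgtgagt
The CD55 window holds 1 MYB core and no other match. The CD59 window holds 1 CHR, 1 CCAAT box and 1 MYB core, and the CD46 window 1 CCAAT box and 2 MYB cores. Windows of members lower with FDI6 at an edgeR adjusted p under 0.05 are not printed. Among these, the C1R window holds 1 CHR, 1 MYB core and 1 forkhead core. That of C5 holds 1 CCAAT box and 1 MYB core, and C1S had no window. Among all 35116 RefSeq windows of 300 bases, 15.2% hold the CHR letters, 34.6% a CCAAT box, 77.2% the MYB core and 12.3% the forkhead core. Such matches describe the letters alone. Windows were given for 7 of the 9 genes, and CD59 has 4 of them in the table, CD46 has 2 and CD55 has 1, of which the window with its start site nearest to that of the canonical transcript was printed.

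In the siRNA experiments the 3 membrane inhibitors were not called. CD55 was at 180.3, 202, 86.8 and 226 CPM in siControl replicates 1 to 4, at 189, 190.0, 99.1 and 233 in siMYBL2 and at 180.4, 212.5, 92.4 and 263 in siFOXM1. Replicate 3 was thus the lowest and replicate 4 the highest in all 3 groups, and the highest siControl library was 2.6-fold above the lowest. Libraries with the same number were close, with siMYBL2 over siControl ratios from 0.94 to 1.14. In the double knockdown experiment, CD55 was at 214, 120.2 and 123 CPM in siBoth and at 173, 116 and 116 in siControl_Both, a log2 fold change of 0.20 (interval -0.35 to 0.76, edgeR adjusted p = 0.62).

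CD59 was at 168, 179.8, 179 and 117 CPM in siControl, 197, 213, 214.5 and 141 in siMYBL2 and 175, 181, 186 and 134 in siFOXM1, with replicate 4 the lowest in each group. Each siMYBL2 library exceeded the siControl library of the same number by 1.17 to 1.21 times, in 4 of 4 pairs with a mean log2 ratio of 0.25 ± 0.02 (SD, n = 4). In a two-sided exact permutation of the signs of the pairs this gives p = 0.125, which 4 pairs cannot go below. Over all genes, CD59 had a log2 fold change of 0.27 with edgeR adjusted p = 0.286, and of 0.27 with edgeR adjusted p = 5.19e-05 when the replicate number entered as a block, below 1.5-fold both times. In siBoth, CD59 had a log2 fold change of -0.04 (interval -0.26 to 0.17). CD46 ranged from 294 to 405 CPM in siControl, from 284 to 380.0 in siMYBL2, from 283.5 to 450.3 in siFOXM1, from 284 to 353 in siControl_Both and from 261 to 356 in siBoth. Its log2 fold changes were 0.03, 0.06 and -0.03 in siMYBL2, siFOXM1 and siBoth, and the 3 intervals together span -0.33 to 0.42.

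**Figure D2:**
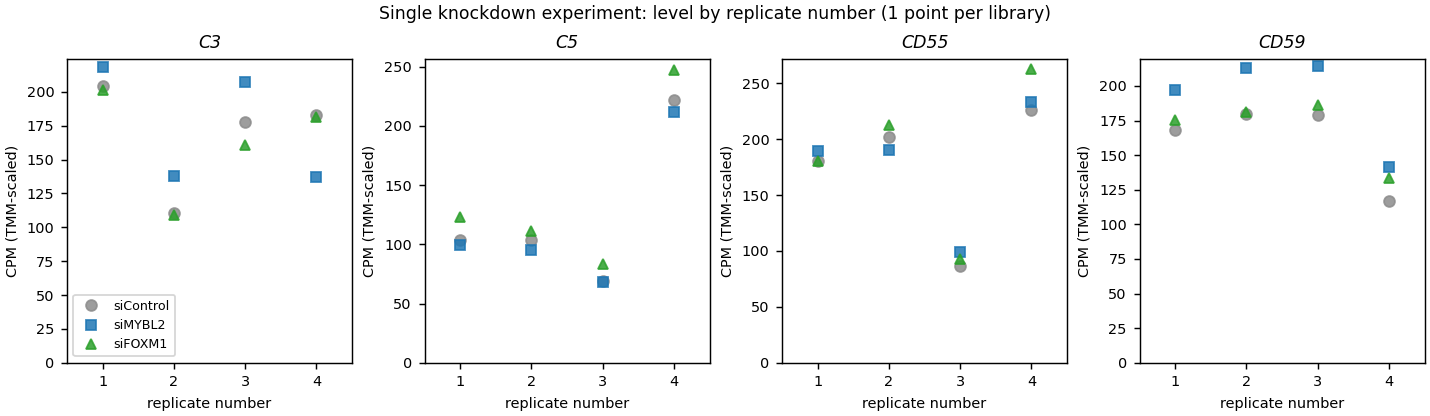
CPM (y axis) of C3, C5, CD55 and CD59 in the siControl, siMYBL2 and siFOXM1 libraries by replicate number (x axis), 1 point per library. C5 is highest in replicate 4 of each group and CD55 lowest in replicate 3, and for C5 and CD55 the replicate numbers lie farther apart than the treatments.

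C5, the start of the membrane attack complex, lies on the minus strand of chromosome 9 from 120932987 to 121075195 (ENSG00000106804.7, 41 exons). The control_FDI6 libraries had 143, 133 and 144 CPM and the FDI6 libraries 117, 90.2 and 82.8, so the groups did not overlap. Means were 139.9 ± 5.96 (SD, n = 3) and 96.6 ± 17.8 (SD, n = 3), a log2 fold change of -0.51 (interval -0.74 to -0.29, SE 0.105, edgeR adjusted p = 0.00264). This is short of 1.5-fold. Without FDI6 replicate 1, which was the highest treated library, it was -0.66 and called (edgeR adjusted p = 1.02e-12), and with the GC and length correction it was -0.87 and called (edgeR adjusted p = 4.35e-08).

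In the siRNA experiments, the spread of C5 between libraries of a group was wide. It was at 103, 104, 68.9 and 222 CPM in siControl, 99.4, 95.4, 67.95 and 211.5 in siMYBL2 and 123, 112, 83.45 and 247 in siFOXM1. Replicate 4 was the highest and replicate 3 the lowest in each group, 3.23-fold apart in siControl. The siMYBL2 library was slightly lower than the siControl library of its number in 4 of 4 pairs (ratios 0.918 to 0.987), and the siFOXM1 library was higher in 4 of 4 (ratios 1.07 to 1.21), and the exact two-sided permutation of pair signs gave 0.125 for each, its lowest possible value. The log2 fold change in siFOXM1 was 0.18 (edgeR adjusted p = 0.924), and 0.20 with the replicate block (edgeR adjusted p = 0.000136), and neither is a call. In siBoth, C5 was at 76.5, 57.7 and 75.6 CPM against 137, 73.1 and 86.7 in siControl_Both, lower in 3 of 3 pairs with ratios from 0.559 to 0.872. Its log2 fold change of -0.47 did not pass (edgeR adjusted p = 0.194), and with the block it was -0.44 (edgeR adjusted p = 0.00233), below 1.5-fold.

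C1R and C1S, the proteases of the C1 complex, lie on opposite strands of chromosome 12. C1R (ENSG00000159403.16, minus strand, 7080214 to 7092540, 11 exons) shares 25.2% of its exon bases with C1RL, and pairs there may be missing from its counts. C1S (ENSG00000182326.14, plus strand, 6988259 to 7071032, 12 exons) shares none. In control_FDI6, C1R was at 15.1, 14.4 and 14.4 CPM and C1S at 33.85, 35.0 and 36.3, and in FDI6 C1R was at 11.2, 10.2 and 11.8 and C1S at 25.2, 23.6 and 25.6. Every FDI6 library was below every control for both genes. On the log2 scale the difference was -0.38 for C1R (interval -0.62 to -0.14, edgeR adjusted p = 0.0165) and -0.47 for C1S (interval -0.66 to -0.29, edgeR adjusted p = 0.00112), short of 1.5-fold for each. For C1R, the adjusted p was 0.0656 without FDI6 replicate 2 and 0.0666 without control_FDI6 replicate 1.

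In the knockdowns neither protease gene was called. C1R was at 28.0, 13.5, 25.6 and 24.1 CPM in siControl, 29.2, 19.1, 32.0 and 23.3 in siMYBL2 and 29.4, 16.8, 25.3 and 22.5 in siFOXM1, with replicate 2 the lowest of each group. In the double knockdown experiment it was at 79.1, 51.15 and 65.8 CPM in siControl_Both and 94.0, 62.9 and 93.3 in siBoth. The siBoth library was 1.19 to 1.42 times the control of its number in 3 of 3 pairs, for which an exact two-sided permutation of signs cannot go below 0.25. For siBoth this was a log2 fold change of 0.38 (interval -0.06 to 0.82, edgeR adjusted p = 0.227), and 0.38 with the block (edgeR adjusted p = 0.000945), below 1.5-fold. C1S ranged from 49.3 to 79.8 CPM in siControl, 62.4 to 81.2 in siMYBL2, 55.6 to 79.2 in siFOXM1, 124 to 179.6 in siControl_Both and 139 to 195.5 in siBoth, and its log2 fold changes were 0.07, 0.01 and 0.18 in siMYBL2, siFOXM1 and siBoth.

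C3, the central protein of the cascade (ENSG00000125730.16, minus strand of chromosome 19, 6677704 to 6730562, 41 exons), was called in none of the 4 comparisons. It was at 204, 110.5, 178 and 183 CPM in siControl, 219, 138, 207 and 137 in siMYBL2 and 201.5, 109, 161 and 181 in siFOXM1, and the groups overlapped. The log2 fold changes were 0.08 (interval -0.41 to 0.56) in siMYBL2 and -0.04 (interval -0.54 to 0.45) in siFOXM1. In siBoth it was at 733, 663 and 582 CPM against 948, 721 and 624 in siControl_Both, and each siBoth library was below the control of its number (ratios 0.773 to 0.932, 3 of 3 pairs). This gave a log2 fold change of -0.19 (interval -0.55 to 0.18, edgeR adjusted p = 0.474). With FDI6 it was at 33.65, 26.95 and 30.0 CPM against 33.0, 33.3 and 32.5, a log2 fold change of -0.10 (interval -0.31 to 0.10, edgeR adjusted p = 0.403).

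CFB encodes factor B (ENSG00000243649.8, plus strand of chromosome 6, 31945650 to 31952086, 18 exons). A read-through gene of the annotation shares 90.8% of its exon bases and had no counts in any library, so pairs from shared exons may have been set aside as ambiguous and the level of CFB is uncertain. The siControl libraries had 7, 4, 2 and 7 counts and the siMYBL2 libraries 20, 23, 13 and 17, which is 0.293, 0.153, 0.0712 and 0.296 CPM against 0.8, 0.789, 0.501 and 0.594 CPM. All siMYBL2 libraries were above all siControl libraries. With 4 libraries a group, CFB had a log2 fold change of 1.75 (interval 0.86 to 2.65, SE 0.396, edgeR adjusted p = 0.0163), a 3.37-fold difference. CFB passed the filter on low counts only through the siMYBL2 libraries, the adjusted p was 0.0539 without siMYBL2 replicate 1 and 0.0548 without siControl replicate 2, and it was not tested where 10 counts were asked of every library.

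In siFOXM1, CFB had 13, 6, 9 and 11 counts (0.242 to 0.502 CPM) and did not pass the filter, and its range overlapped that of siControl. The double knockdown experiment had more CFB, with 84, 72 and 39 counts in siControl_Both (3.87, 2.77 and 1.74 CPM) and 241, 115 and 70 in siBoth (9.09, 4.79 and 2.87 CPM). Each siBoth library was 1.65 to 2.35 times the control of its number, although the groups overlapped. The log2 fold change was 1.03 (interval 0.04 to 2.02, edgeR adjusted p = 0.155), and with the replicate block it was 0.98 and called (edgeR adjusted p = 0.000438). The FDI6 libraries had 3, 2 and 2 counts and the control_FDI6 libraries 2, 0 and 0, so CFB could not be compared there.

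CFI encodes factor I (ENSG00000205403.13, minus strand of chromosome 4, 109731008 to 109802150, 13 exons) and was close to the limit of detection. A read-through gene with no counts shares 79% of its exon bases. The counts per library were 9, 1, 11 and 12 in siControl, 2, 4, 2 and 22 in siMYBL2, 7, 3, 10 and 30 in siFOXM1, 24, 12 and 27 in siControl_Both, 9, 10 and 37 in siBoth, 2, 10 and 3 in control_FDI6 and 2, 1 and 3 in FDI6. Of the 4 comparisons with controls, the filter was passed only in that of siBoth, with a log2 fold change of -0.25 (interval -1.63 to 1.13, edgeR adjusted p = 0.817). A difference in CFI was not detectable at this depth.

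**Figure D3:**
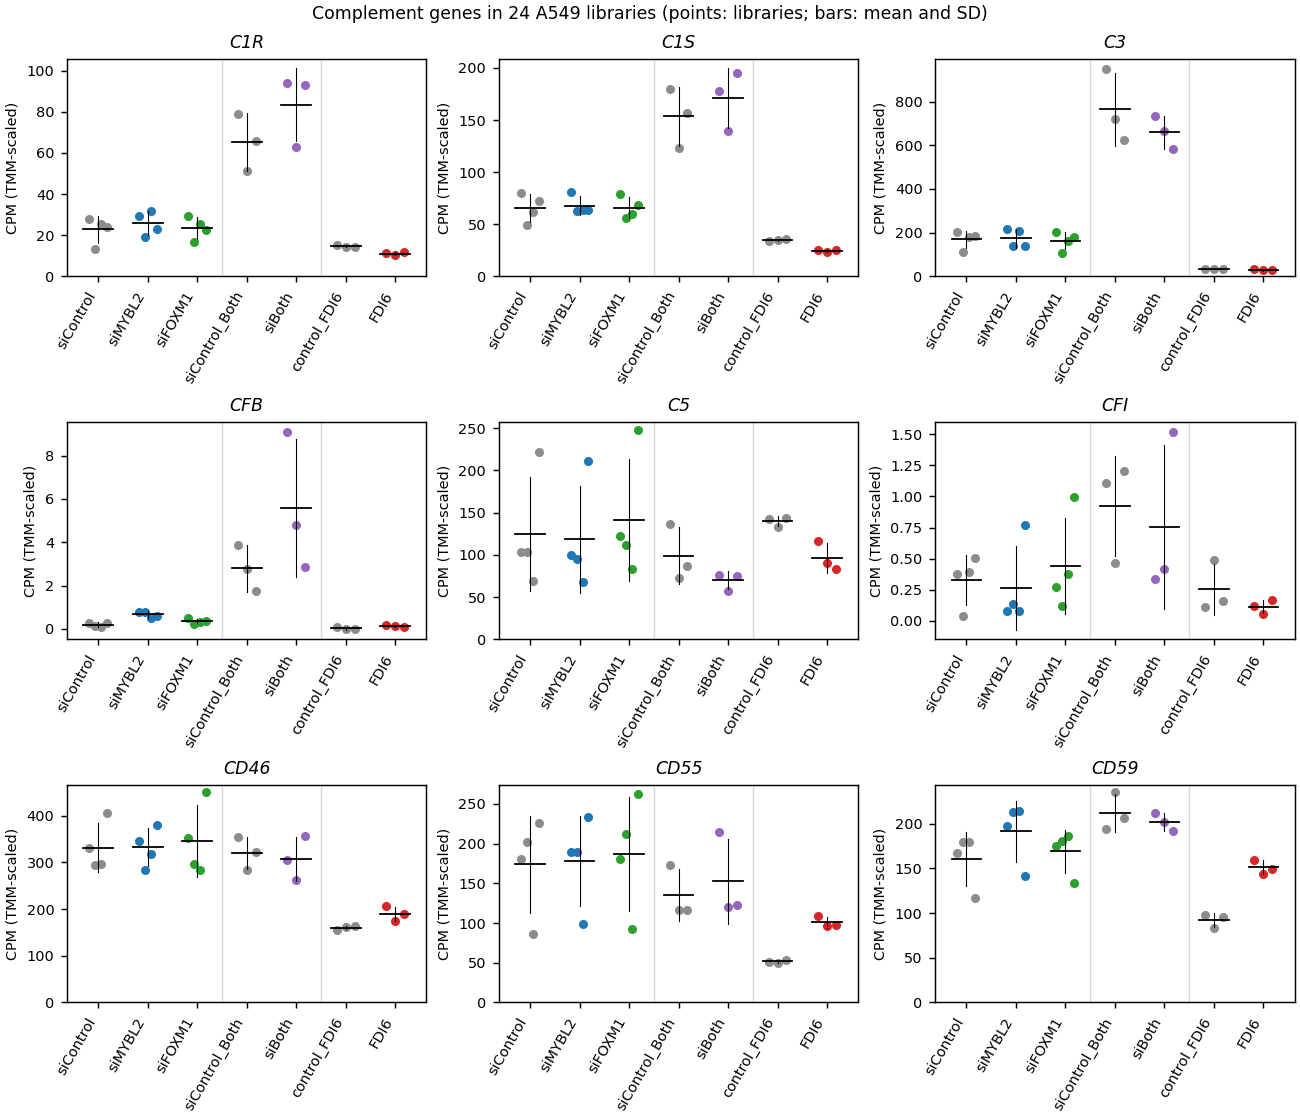
CPM with TMM-scaled library sizes (y axis, linear, own scale per gene) of the 9 genes in the 24 libraries, with 1 point per library and black lines for mean and SD, and grey lines between the 3 experiments. CD55 and CD59 separate FDI6 from control_FDI6, and C1R, C1S, C3 and CFB are highest in the double knockdown experiment in both of its groups.

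Levels also differed between the control groups of the 3 experiments, most for CFB and C3. C3 averaged 169 CPM in siControl, 764 in siControl_Both and 32.9 in control_FDI6, which is 23.2-fold between the last 2. C1R and C1S were 4.46-fold and 4.38-fold higher in siControl_Both than in control_FDI6. CFB was 13.7-fold higher in siControl_Both than in siControl, on the low counts given above. C5 went the other way, with siControl_Both at 0.707 times the level of control_FDI6. The membrane inhibitors CD46, CD55 and CD59 were 2-fold, 2.62-fold and 2.3-fold higher in siControl_Both than in control_FDI6. These control groups differ in experiment, in siRNA, in read depth, in the share of pairs aligned and perhaps in solvent, which cannot be told apart. No test was made between them.

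Per kilobase of exon in the canonical transcript that no other gene shares, CD46 was the highest member in siControl at 106.2 ± 16.7 CPM per kb (SD, n = 4), followed by CD55 at 67.1 ± 23.5, C3 at 32.3 ± 7.77, C1S at 24.5 ± 4.95, CD59 at 23.2 ± 4.33, C5 at 22.8 ± 12.3 and C1R at 12.3 ± 3.43. The gaps from C1S to CD59 and from CD59 to C5 were smaller than any of their SDs, that from C5 to C1R was smaller than the SD of C5, and that from C3 to C1S was about the SD of C3. In siControl_Both, C3 came first at 146 CPM per kb, ahead of CD46 at 102.5. In control_FDI6, C3 came last of these 7 at 6.30 CPM per kb, and CD46 at 51.3 was followed by C5 at 25.6 and CD55 at 19.9. CFB and CFI are left out of this order because most of their exon bases are shared.

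Cell type markers were read beside the FDI6 values. The 6 epithelial markers summed to 5968 to 6854 CPM in FDI6 and 9808 to 10560 CPM in control_FDI6, although KRT19 averaged 70.0 CPM in FDI6 and 56.0 in control_FDI6. The 8 fibroblast markers summed to 8.47 to 12.9 CPM against 21.3 to 23.4 CPM, mostly COL1A1, which averaged 7.23 CPM against 17.97, while COL1A2 averaged 0.719 against 0.103. The 7 leukocyte markers summed to 2.12 to 3.21 CPM and 2.91 to 4.53 CPM, with 1 of them at 0 in all libraries. In siMYBL2 the leukocyte markers summed to 8.56 to 15.4 CPM against 4.34 to 7.90 in siControl, and in siBoth to 10.9 to 12.8 CPM against 4.46 to 8.12 in siControl_Both. Most of these sums was CD14, at 11.7 CPM in siMYBL2 against 5.72 in siControl and at 11.2 in siBoth against 5.38 in siControl_Both. The part of these differences in the values of the complement genes was not tested, and in bulk RNA fewer cells of a type and less RNA per cell cannot be told apart.

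The rest of the complement system was read from a list of 51 other genes. Of these, 31 stayed below 1 CPM in every library, among them 8 with no counts in any library, and 20 reached 1 CPM in at least 1. With FDI6, 7 of 16 genes tested were called, 2 higher and 5 lower, with a median log2 fold change of -0.30, beside 13.8% of all genes (8% higher and 5.77% lower) and a median of -0.012. The higher genes were PTX3, a pattern recognition protein that binds C1q, and ITGAM, a chain of complement receptor 3. PTX3 had 25, 27 and 32 counts in FDI6 against 3, 7 and 4 in control_FDI6, a log2 fold change of 2.71 (SE 0.386, edgeR adjusted p = 0.000273). PTX3 passed the filter on low counts only through the FDI6 libraries, and another gene lies opposite 3.77% of its exon bases. ITGAM had 47, 60 and 51 counts against 30, 38 and 31, a log2 fold change of 0.83 (SE 0.221, edgeR adjusted p = 0.0112).

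The genes lower with FDI6 included the protease gene CFD and the soluble regulators VTN, C4BPB and CPN1. VTN, which encodes vitronectin, an inhibitor of pore assembly, was at 6.07, 4.48 and 6.42 CPM against 11.5, 11.6 and 10.8 (log2 fold change -0.97, edgeR adjusted p = 0.000484). Another gene shares 20.2% of the exon bases of VTN. CFD, which encodes the protease that activates factor B, was at 14.1, 15.6 and 15.3 CPM against 26.1, 28.0 and 23.4 (log2 fold change -0.76, edgeR adjusted p = 0.000177). C4BPB and CPN1, a chain of C4b-binding protein and the catalytic chain of carboxypeptidase N, had at most 11 counts in an FDI6 library and differed by -1.46 and -1.80 on the log2 scale (edgeR adjusted p = 0.013 and 0.00518), and both passed the filter only through the control_FDI6 libraries. In each of these genes the groups did not overlap.

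**Figure D4:**
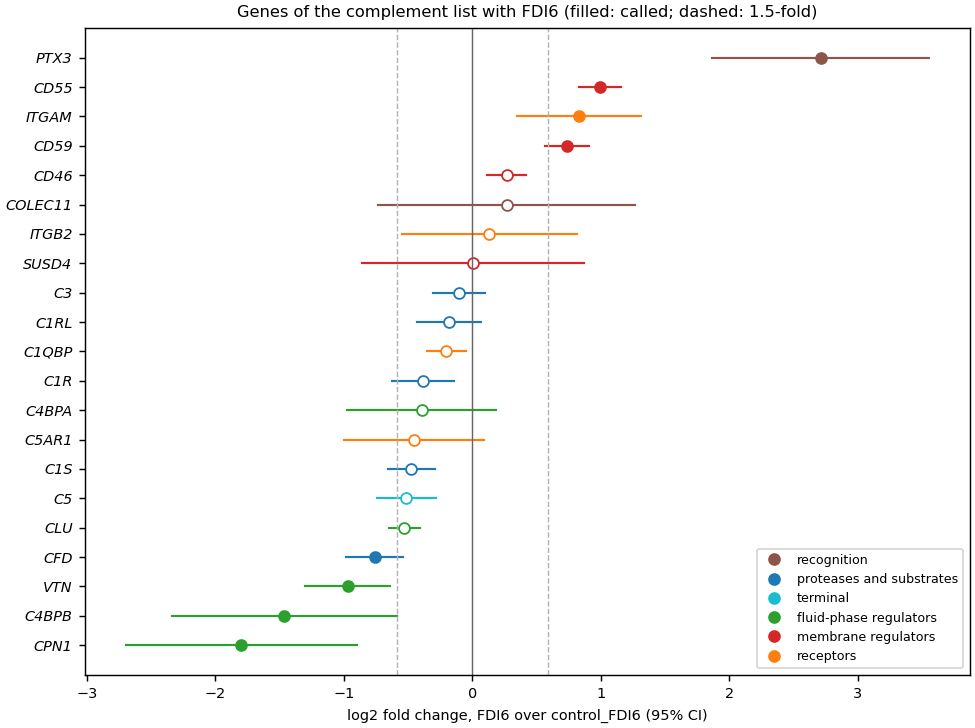
Log2 fold change (x axis) of complement genes tested with FDI6, the members among them, with 95% confidence intervals as lines, colours for the role and filled points for called genes. PTX3, CD55, ITGAM and CD59 lie at the top, and the called genes at the bottom are soluble regulators and CFD.

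In siMYBL2, 3 of 22 other genes tested were called, all higher, and the list had a median log2 fold change of 0.27, beside 7.9% of all genes called and a median of 0.015. C1RL, a protease-like neighbour of C1R, was at 54.7, 46.6, 46.35 and 64.0 CPM against 38.5, 28.2, 30.55 and 44.8 in siControl, a log2 fold change of 0.60 (SE 0.165, edgeR adjusted p = 0.035). C5AR1, the receptor of C5a, had a log2 fold change of 0.79 (edgeR adjusted p = 0.0486) at 2.16 to 3.98 CPM against 1.35 to 2.33, and ITGAX, a chain of complement receptor 4, had 2.30 (edgeR adjusted p = 6.44e-05). With the replicate block 7 were called, all higher, beside 1991 of 16065 genes, of which 62.0% were higher. Among the 7 was VTN at 1.03 (edgeR adjusted p = 7.54e-07), which was at 22.4, 19.6, 10.7 and 30.8 CPM against 11.9, 11.01, 4.20 and 14.7. In siBoth, 2 of 20 were called, ITGAM at 1.21 and ITGAX at 2.33 (edgeR adjusted p = 0.00853 and 0.00103), beside 6.44% of all genes. With the block 4 were called, all higher, beside 1849 of 15812 genes, of which 56.6% were higher. In siFOXM1, edgeR called 0 of 22 (2 at an unadjusted p under 0.05, and 0 with DESeq2), beside 0.667% of all genes. Of all 15892 genes, 2060 had an unadjusted p under 0.05. With the block edgeR called PTX3 alone, lower by a log2 fold change of -1.26 (edgeR adjusted p = 0.000224), beside 401 of 15892 genes.

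Treatments were then compared with each other. Since siMYBL2 and siFOXM1 share their controls, their libraries were compared directly, and edgeR called 0 of 8 members (1 at an unadjusted p under 0.05, and 0 with DESeq2), while 10.2% of all genes were called. Of all 16172 genes, 5841 had an unadjusted p under 0.05. CFB had the largest log2 difference, 0.89 (edgeR adjusted p = 0.0539), and with the replicate block it was called (edgeR adjusted p = 0.0328). It passed the filter on low counts only through the siMYBL2 libraries, where it was high, and the 10.2% is without the block. In the block fit, C5 was lower and CD59 higher in siMYBL2, both with an edgeR adjusted p under 0.05. Each differed by less than 1.5-fold. Of the 22 other complement genes tested, 2 were called, both higher in siMYBL2, beside 10.2% of all genes. Among them was ITGAX, with a log2 difference of 2.61 (edgeR adjusted p = 0.00012). With the block 5 were called, all higher. The effect of siBoth, taken over its own controls, was set against that of siMYBL2, and edgeR called 0 of 9 members (0 at an unadjusted p under 0.05, and 0 with DESeq2) beside 0.159% of all genes. Here 1323 of all 17012 genes had an unadjusted p under 0.05. Without the block, the largest member differences were in CFB, at -0.73 (interval -2.11 to 0.66), and C5, at -0.43 (interval -1.64 to 0.79). Both intervals are wide. With the block, the log2 fold changes of C5 and CD59 were lower in siBoth than in siMYBL2, with an edgeR adjusted p under 0.05. Both differences were below 1.5-fold, and the block called no member.

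The effect of FDI6 was set against that of siFOXM1, each over its own controls. Of 8 members tested, 1 was called, beside 11.5% of all genes: CD59, whose effect was higher with FDI6 by 0.65 on the log2 scale (interval 0.24 to 1.07, edgeR adjusted p = 0.0287). CD55 had a difference of 0.88 that did not pass (interval -0.03 to 1.79, edgeR adjusted p = 0.16). With the replicate number as a block within each experiment, 3 members were called, CD55 at 0.89 and CD59 at 0.65 upward and C5 at -0.73 downward. The numbers do not pair the FDI6 libraries (correlations across genes of -0.286 to 0.159), and the 11.5% is without the block. With the GC and length correction, CD59 was at 0.37 (edgeR adjusted p = 0.284) and no member was called. Of the other complement genes, PTX3 was called upward at 3.997 (edgeR adjusted p = 0.00178) and C4BPB, CLU and C5AR1 downward at -1.99, -0.73 and -0.98 (edgeR adjusted p = 0.0336, 0.0358 and 0.0498). CLU encodes clusterin, an inhibitor of pore assembly, and was at 413 to 438 CPM in FDI6 and 597.5 to 637 in control_FDI6.

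The genes most like each called member were found from log2 CPM minus the mean of the library's own control group, over 24 libraries, among genes that averaged 100 or more counts. These values share libraries and controls, still hold the differences between replicate numbers, and are given as a description. CD55 was most like NET1, RDH10 and PTPRH (Pearson r = 0.948, 0.922 and 0.896). CD59 was most like ITGAV, SH3KBP1 and LRRC8C (r = 0.946, 0.945 and 0.944). CFB was most like CTSS, MMP7 and GBP2 (r = 0.887, 0.875 and 0.863), with its low counts in mind. Among the members themselves, C1R and C1S had the highest correlation at 0.863, CD55 and CD46 were at 0.622, CD55 and CD59 at 0.19, and C5 and CD59 had the lowest at -0.654.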

How the data were processed

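Poly(A) RNA of 24 A549 libraries was sequenced as paired reads of 150 bases. According to the methods and the submitters' processing notes, the authors trimmed the reads with Trim Galore, aligned them to hg38 with STAR and counted pairs on GENCODE V29 genes with HTSeq, for which versions and the strand setting are not given in the sources used here. The deposited values are raw whole-number counts for each gene. Pairs that matched more than 1 gene (7.88% to 11.20% of pairs) or more than 1 place were not counted, so genes with shared exons are counted in part. Of 58721 identifiers, 58207 were found in the newer GENCODE V44 annotation of hg38, and 514 were not.

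Groups and replicate numbers came from the sample labels. Counts were fitted with edgeR 4.0.16 in R 4.3.3 for each comparison on its own groups, with TMM scaling, edgeR's filter on low counts, the quasi-likelihood test and Benjamini-Hochberg adjustment. SEs were computed from the log2 fold change and the F statistic. CPM in the text use TMM over all 24 libraries. The steps were tested on simulated data. Same-numbered libraries deviated together in the 3 knockdown comparisons (correlations across genes of 0.57 to 0.874, 0.537 to 0.905 and 0.552 to 0.687) but not with FDI6 (-0.286 to 0.159), so the numbers, which come from the labels, pair the knockdown libraries. All pairs of libraries in a group differed by more than sampling noise.

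Other settings tried were scaling by upper quartile or RLE, a filter of 10 counts in all libraries or none, the replicate number as a block, DESeq2 1.42.0, and each library left out in turn. After values were seen, counts were also corrected for transcript GC content and length (known for 99.6% of genes), alone and with the block. The 9 members, the complement list and the markers were chosen with earlier results of these data known. Named genes are the members, list genes called in at least 1 comparison (some are not reported here), and the 3 genes most like each called member. VTN in siMYBL2 and the correlations among members fall outside this rule and were chosen after their values were seen.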

Additional observations from a re-analysis of the deposited data

Results flagged for a closer look

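In groups of 4 libraries, the highest or lowest value of each of the 9 genes was compared with its nearest neighbour by Dixon's criterion, and 2 of 27 tests passed it, where chance gives about 1 in 20. C1S was at 81.2 CPM in siMYBL2 replicate 1, far above the other 3 siMYBL2 libraries at 62.4 to 63.8 CPM, but siControl and siFOXM1 replicate 1 were also the highest of their groups at 79.8 and 79.2 CPM. CFI was at 0.768 CPM in siMYBL2 replicate 4, which is 22 counts against 2, 4 and 2 in the others, and siFOXM1 replicate 4 was also the highest of its group, with 30 counts. C1S was called in siMYBL2 with none of the libraries left out in turn, and CFI was not tested in siMYBL2. The cause was not tested.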

How the results depend on the processing

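The number of genes called moved by over 1.5 times with the replicate block, which pairs the knockdown libraries, to 1991 in siMYBL2, 401 in siFOXM1 and 1849 in siBoth. With the block and the GC and length correction it was 2005, 394 and 1668, and 1300 with FDI6. The correction alone gave 1361 with FDI6, and no filter gave 1545 in siBoth. The share of higher calls was 63.8% in siMYBL2, 59.4% in siBoth and 49.8% with FDI6 under upper-quartile scaling, 41.9% and 26.5% in siMYBL2 and siBoth under the correction, and 56.6% in siBoth and 41.6% in siFOXM1 under the block, beside 55.5%, 43.5%, 58.1% and 11.3% in siMYBL2, siBoth, FDI6 and siFOXM1 as reported. The correction, without and with the block, lowered the median of all genes in siBoth by 0.108 on the log2 scale, and no other setting moved a median by over 0.1.

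Members called were 0 in siMYBL2 with at least 10 counts in every library, 1 in siBoth (CFB) without the filter, with the block and with the block and the correction, 1 between siMYBL2 and siFOXM1 (CFB) under upper-quartile scaling, the block and the block with the correction, and, for FDI6 against siFOXM1, 3 without the filter and with the block, 0 with the correction and 2 with both. The block changed no other call of a member. Leaving out each library gave 935 to 1456 genes and 0 to 1 members in siMYBL2, 56 to 115 genes in siFOXM1, 587 to 1097 in siBoth, and 1705 to 2406 genes and 2 to 3 members with FDI6.

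Small values that were not called changed sign. Under upper-quartile scaling these were C5 in siMYBL2 (0.01), CD46 and CD59 in siBoth (0.043 and 0.033) and CD46 between siMYBL2 and siFOXM1 (0.005). Under the correction, without and with the block, they were C3 (-0.019 and -0.017) and CD46 (-0.011 and -0.009) in siMYBL2, C1S in siFOXM1 (-0.035 and -0.031), CD46 in siBoth (0.008 and 0.011), in siBoth against siMYBL2 (0.024 and 0.024) and in FDI6 against siFOXM1 (-0.085 and -0.078), C1R in siFOXM1 without it (-0.005), and CFI in siBoth against siMYBL2 with it (0.015, and 0.000 with the block alone). CD46 with FDI6, which had an adjusted p under 0.05 as reported, also did so (-0.007 and -0.008). With 1 library left out, the ranges that crossed 0 were in siMYBL2 C1S -0.057 to 0.17, C3 -0.089 to 0.18, C5 -0.49 to 0.38, CD46 -0.052 to 0.12 and CD55 -0.17 to 0.25, in siFOXM1 C1R -0.13 to 0.18, C1S -0.10 to 0.12, C3 -0.20 to 0.11, C5 -0.23 to 0.62, CD46 -0.085 to 0.18, CD55 -0.12 to 0.33 and CD59 -0.046 to 0.18, and in siBoth CFI -1.25 to 0.10, CD46 -0.17 to 0.068, CD55 -0.13 to 0.42 and CD59 -0.11 to 0.035. The cause was not tested. Across results and settings, 582 values kept their direction and side of the threshold and 55 changed sign, 34 of these with 1 library left out. Depth limits CFB and CFI, whose counts are low.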

Other observations

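C5 is not among the called members, and the genes most like it were looked up after its values had been seen. Over 24 libraries, each minus the mean of its own control group, FGL1 (r = 0.955) and APOH (r = 0.946) were among the genes most like C5. Both are known for their expression in liver. Differences between replicate numbers, wide for C5, remain in these values. These correlations share libraries and controls and are a description.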
